A study of Mus musculus with 6 samples.

Results

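Paired receptors of the immunoglobulin superfamily were followed in bone marrow-derived macrophages (BMMs) that met fragments of cartilage. The 9 genes were Pilra, Pilrb1, Lilr4b, Tarm1, Cd300a, Cd300lb, Cd300ld, Cd300lf and Sirpa, out of 24394 gene symbols in the files. FPKM stands for fragments per kilobase of transcript and per depth of the library, and all 9 were among the 10393 genes that averaged 1 FPKM or more and were tested. The genes were selected by symbol with the levels of these same libraries known, so their values in the groups are a description and carry no test. Both groups were macrophages grown from the marrow of wild-type C57BL/6 mice at postnatal day 28 after a monocyte isolation kit, with 50 ng/ml of recombinant macrophage colony-stimulating factor for 7 days. The 3 control libraries came from cultures without fragments, and the 3 stimulated libraries from cultures that received 5 fragments per macrophage for 24 h, with fragments crushed from the femoral head cartilage of the same mice. No source says that the 3 libraries of a group came from separate mice or cultures, so the spread between them may be technical.

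Paired receptors share related extracellular immunoglobulin domains and differ inside the cell. The inhibitory partner has a long tail with immunoreceptor tyrosine-based inhibitory motifs (ITIMs), which recruit the phosphatases Ptpn6 (SHP-1), Ptpn11 (SHP-2) and Inpp5d (SHIP-1). The activating partner has a short tail and signals through the adaptors Tyrobp (DAP12) or Fcer1g (FcR gamma chain), which carry activating motifs (ITAMs) that recruit the kinase Syk. Myeloid cells carry many such receptors, and the best known in macrophages is SIRP alpha, encoded by Sirpa, which binds CD47 on other cells and restrains phagocytosis.

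The reference coding sequences separated the 9 genes along this line. In the GENCODE M21 transcripts (GRCm38) that match the RefSeq transcript of each gene, an ITIM-type motif was taken as a tyrosine with isoleucine, leucine, valine or serine 2 residues before it and isoleucine, leucine or valine 3 residues after it. The membrane span was taken as the most hydrophobic stretch of 19 residues. After the span, Pilra held 1 motif, Cd300a 2, Cd300lf 2 and Sirpa 3, in tails of 85, 113, 125 and 117 residues. Pilrb1, Tarm1, Cd300lb, Cd300ld and Lilr4b held 0, in tails of 8, 14, 33, 24 and 42 residues. Lilrb4a, the neighbour of Lilr4b, held 2 motifs in a tail of 74 residues. A basic residue, by which activating receptors pair with their adaptor, stood in the span of Pilrb1, Tarm1 and Cd300lb, and Cd300ld had 1 acidic residue there instead. The first motif of each inhibitory gene is shown to mark that part of the transcript, as 18 coding bases with the tyrosine codon in capitals (GENCODE M21, GRCm38).
Pilra, chr5:137823571-137823588, minus strand: atcgtgTATgcttccatc
Cd300a, chr11:114899846-114899863, plus strand: gtggaaTATagcacattg
Cd300lf, chr11:115117648-115117665, minus strand: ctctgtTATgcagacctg
Sirpa, chr2:129629954-129629971, plus strand: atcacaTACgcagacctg
Lilrb4a, chr10:51496021-51496038, plus strand: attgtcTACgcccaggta

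**Figure D1:**
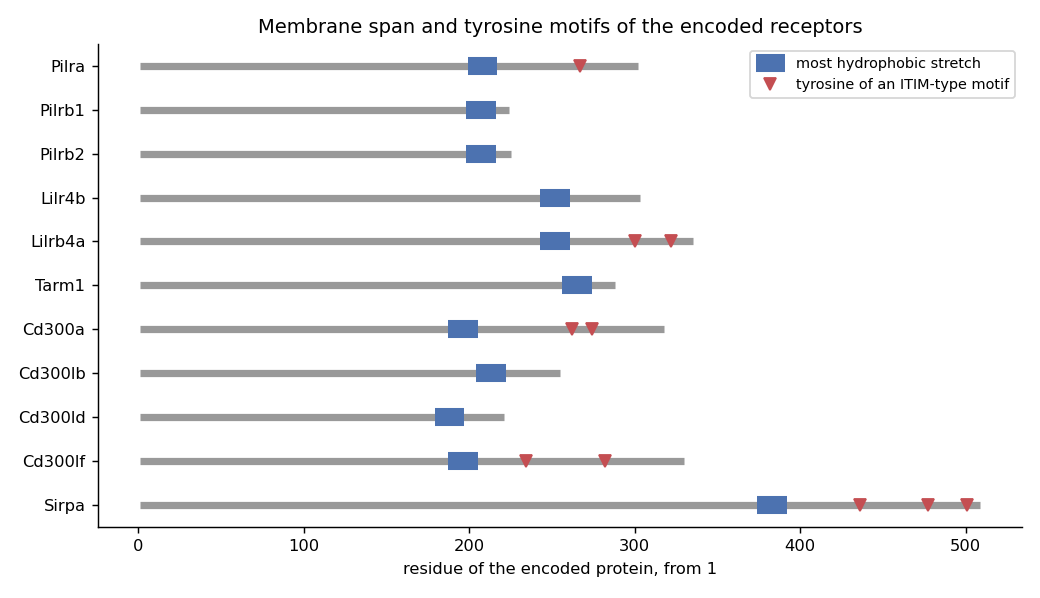
The encoded receptors drawn to scale along the residue number, with the most hydrophobic stretch as a blue box and the tyrosine of each ITIM-type motif as a red triangle. The 4 inhibitory members and Lilrb4a carry between 1 and 3 motifs, and the others carry 0.

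Of the 9 genes, 4 lay higher in all 3 stimulated libraries than in all 3 controls (Pilra, Pilrb1, Tarm1 and Sirpa), 3 lay lower (Cd300a, Cd300lb and Cd300ld), and Cd300lf and Lilr4b overlapped. Over all tested genes, the groups did not overlap for 9.04% in the higher direction and 6.89% in the lower. As the genes were chosen with these values in view, nothing is read from their share. Pilra alone among the 9 passed an adjusted p under 0.05 in the fit over all genes (limma on log2 values), from which nothing is read either, as it uses the values that chose the genes. This threshold was passed by 0.308% of tested genes as higher, 0.0577% as lower and 0.366% in either direction. Without stimulated replicate 1 no member passed, and without control replicate 2 Tarm1 passed as well. The paper, with a different test, lists Pilra and Tarm1 as significantly higher, Cd300a and Cd300lb as lower and Lilr4b in both directions. It also lists Pirb, Igsf6, Fgr, Ptpn6 and Col1a1, which are named below. In bulk RNA, fewer cells that express a receptor and less of its RNA per cell cannot be told apart.

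**Figure D2:**
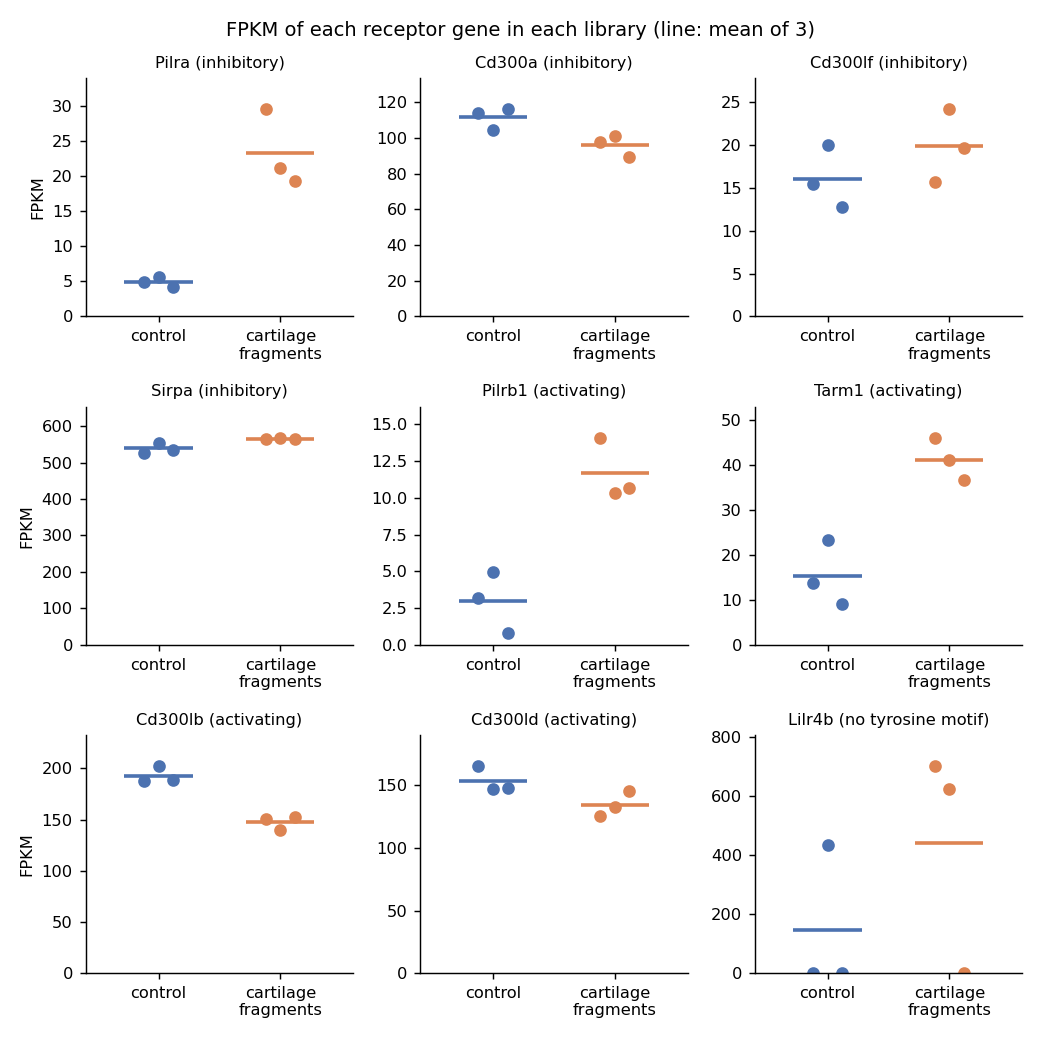
FPKM of the 9 receptor genes in each of the 3 control and 3 stimulated libraries (points), with the mean of each group as a line and every axis starting at 0. Pilra, Pilrb1 and Tarm1 separate widely, the Cd300 genes and Sirpa differ little, and Lilr4b is listed at 0 in 3 of the 6 libraries.

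Pilra encodes the inhibitory receptor PILR alpha, which binds sialylated O-glycosylated ligands. Its FPKM was 4.91, 5.61 and 4.28 in the controls and 29.6, 21.2 and 19.4 in the stimulated libraries. The lowest stimulated library thus stood at over 3 times the highest control, and the means were 4.93 ± 0.668 and 23.4 ± 5.43 FPKM (SD, n = 3). The ratio of the means was 4.74, and the log2 difference was 2.21 with a standard error of 0.23. The values rested on few fragments, an estimated 7.56 to 10.1 per control library and 32.3 to 53.0 per stimulated library. Cufflinks lists intervals beside the FPKM, with upper bounds of at most 9.54 FPKM in the controls. Their lower bounds were at least 12.7 FPKM in the stimulated libraries. Such an interval describes a library alone and not the spread between cultures. As these intervals come from the values that chose the gene, nothing is read from the gap. Over the 18 alternatives the log2 difference ranged from 2.02 to 2.33. As the groups did not overlap, leaving out a library or changing the pseudocount or filter could not turn its direction.

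Pilrb1 encodes the activating partner PILR beta, which signals through Tyrobp. It was listed at 3.19, 4.95 and 0.833 FPKM in the controls and at 14.1, 10.3 and 10.7 FPKM in the stimulated libraries. The groups did not overlap, and the log2 difference of 2.23 had a standard error of 0.57. This was 0.501 to 3.03 fragments per control library and 6.04 to 8.60 per stimulated library, and the Cufflinks intervals of the groups overlapped. Pilrb2, a second activating gene of the same locus, was at 8.11, 4.18 and 2.54 FPKM in the controls and at 10.1, 10.5 and 5.42 FPKM in the stimulated libraries, which overlapped (limma adjusted p = 0.600). Reads that fit both Pilrb genes cannot be assigned to one, so the sum is given as well. The number of such reads, or of reads shared with Pilra, was not measured. Summed, the Pilrb genes had 11.3, 9.12 and 3.38 FPKM in the controls and 24.1, 20.8 and 16.1 FPKM in the stimulated libraries, with no overlap. The ratio of Pilra to this sum was 0.434, 0.615 and 1.27 in the controls and 1.23, 1.01 and 1.21 in the stimulated libraries. The stimulated ratios fell inside the range of the controls, so a shift between the inhibitory and the activating gene was not detectable at this depth.

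The 3 Pilr genes lie on the minus strand of chromosome 5, with Pilra at chr5:137821952-137836278, Pilrb1 at chr5:137852147-137858049 and Pilrb2 at chr5:137865829-137871758 (mm10, positions of the files). There are 15868 bases between Pilra and Pilrb1 and 7779 between Pilrb1 and Pilrb2. Their promoters, taken from RefSeq (GRCm38.p6) as 250 bases before to 50 after each start, were compared without gaps because Pilra and Pilrb1 were higher together. Shifted by 54 bases, Pilra and Pilrb1 were identical at 242 of 246 bases (98.4%), and Pilra and Pilrb2 at 244 of 246 (99.2%). The stretch shared by Pilra and Pilrb1 is printed 5′ to 3′ with the bases that differ in capitals. Counted from the first base printed and with the base of Pilra first, they are G69A, A89G, A93T and A180G.
Pilra, chr5:137836229-137836474, minus strand: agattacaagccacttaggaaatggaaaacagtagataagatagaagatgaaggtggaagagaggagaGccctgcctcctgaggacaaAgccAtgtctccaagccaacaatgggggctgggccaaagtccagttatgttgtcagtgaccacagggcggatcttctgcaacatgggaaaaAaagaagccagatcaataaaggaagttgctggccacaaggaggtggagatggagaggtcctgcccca
Pilrb1, chr5:137858054-137858299, minus strand: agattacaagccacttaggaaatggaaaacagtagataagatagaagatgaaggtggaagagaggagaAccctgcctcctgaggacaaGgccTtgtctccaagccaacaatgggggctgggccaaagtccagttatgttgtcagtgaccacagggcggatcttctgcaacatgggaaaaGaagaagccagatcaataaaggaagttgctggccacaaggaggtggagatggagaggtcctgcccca

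Promoters of 9 genes of these families (the members except Sirpa, with Pilrb2) were searched on both strands for 5 letter patterns, and a match describes the letters only. TTGCNNAA, a C/EBP-type pattern, stood in Pilra, Pilrb1, Pilrb2 and Cd300a and in 10.8% of all 32817 RefSeq promoters. GAAANNGAA, part of an interferon response element, stood in Pilra, Pilrb1, Pilrb2, Tarm1 and Cd300lf and in 8.55% of all. In the Pilr genes both patterns lie in the shared stretch, so they count as 1 sequence and not as 3. The PU.1 core GAGGAA stood in Pilra, Tarm1, Cd300a, Cd300ld and Cd300lf and in 28.3% of all promoters. A kappaB pattern stood in Cd300a and Cd300ld and in 8.46% of all, and the AP-1 pattern TGANTCA in 0 of the 9 and in 7.81% of all. In Cd300ld the PU.1 core and the kappaB pattern overlap.

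Tarm1, on chromosome 7 (chr7:3489076-3502552), encodes an activating receptor of myeloid cells that pairs with Fcer1g. It was at 13.8, 23.2 and 9.02 FPKM in the controls and at 46.0, 41.0 and 36.5 FPKM in the stimulated libraries. Every stimulated library was above every control, with means of 15.4 ± 7.23 and 41.2 ± 4.72 FPKM (SD, n = 3) and a log2 difference of 1.52 (standard error 0.32). The size rested on transcripts that Cufflinks assembled within a library. The controls had no assembled Tarm1 transcript, and in the stimulated libraries assembled transcripts held 16.0, 41.0 and 30.7 FPKM. These reached past the reference transcript at its 3′ end and were 1272 to 1782 bases long, against 957 bases in the reference. The reference transcript alone gave 30.01, 0 and 5.86 FPKM in the stimulated libraries, and the log2 difference then turned to -2.46. With lines of status OK only, which drop the reference transcript in the stimulated libraries, the groups overlapped and the log2 difference was 0.93. Another unit, scaled fragments, takes what was estimated for a gene per 1000000 fragments of its library. At a given coverage that estimate grows with transcript length, and only the stimulated libraries had the longer assembled transcripts. For Tarm1 scaled fragments are therefore not a check free of length, and the log2 difference was 2.10. In this unit Tarm1 was at 10.3, 17.4 and 6.74 in the controls and at 47.5, 47.5 and 43.3 in the stimulated libraries.

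The Cd300 genes lie in a cluster on chromosome 11 in the order Cd300a (chr11:114890041-114904651), Cd300lb (chr11:114922781-114934386), Cd300ld (chr11:114982446-114989886) and Cd300lf (chr11:115116214-115133992). CD300 receptors bind lipids such as phosphatidylserine that are exposed on dying cells. The gaps between the 4 genes are 18129, 48059 and 126327 bases. The first 3 genes were lower in every stimulated library than in every control, whether they encode an inhibitory or an activating receptor. On reference transcripts alone the groups of Cd300lb overlapped, and with lines of status OK only those of Cd300a did.

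Cd300lb encodes an activating receptor that signals through Tyrobp. It was at 187, 202 and 189 FPKM in the controls and at 150, 140 and 152 FPKM in the stimulated libraries. Its difference was the largest of the 4 members of the cluster, from 193 ± 8.02 to 147 ± 6.75 FPKM (SD, n = 3), a log2 difference of -0.39 with a standard error of 0.08. Cd300a encodes an inhibitory receptor with 2 of the motifs above. It was at 114, 105 and 116 FPKM in the controls and at 97.7, 101 and 89.3 FPKM in the stimulated libraries. The gap between the groups was narrow, and the log2 difference was -0.22 (standard error 0.10). Cd300ld encodes an activating receptor. It was at 165, 146 and 148 FPKM in the controls and at 125, 132 and 145 FPKM in the stimulated libraries. Here too the groups came close, with a log2 difference of -0.19 (standard error 0.10).

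Cd300lf encodes an inhibitory receptor with 2 motifs, known also as the entry receptor of murine norovirus. It was at 15.4, 19.9 and 12.7 FPKM in the controls and at 15.7, 24.1 and 19.6 FPKM in the stimulated libraries. The groups overlapped, and the log2 difference of 0.31 had a standard error of 0.24. On reference transcripts alone it was 2.53, since control replicate 1 had only an assembled transcript. Other Cd300 genes showed no common direction. Cd300lh, listed at 631, 390 and 549 FPKM in the controls and at 419, 140 and 219 FPKM in the stimulated libraries, overlapped between the groups. Cd300e was at 1.49, 0 and 0.779 FPKM in the controls and at 1.54, 5.62 and 2.49 FPKM in the stimulated libraries, near the limit of detection. Cd300c and Cd300lg were below 1 FPKM on average and were not tested.

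Sirpa, on chromosome 2 (chr2:129592839-129632228), had the highest level of the 9 genes in 4 of the 6 libraries. It was at 527, 554 and 535 FPKM in the controls and at 565, 567 and 564 FPKM in the stimulated libraries. The groups did not overlap, but the means of 539 ± 13.8 and 565 ± 1.78 FPKM (SD, n = 3) differed by a log2 value of 0.07 with a standard error of 0.05. In scaled fragments they overlapped, at 1903, 2000 and 1959 in the controls and 2038, 2048 and 1936 in the stimulated libraries. The same was true with equal totals. Nearly all of the Sirpa signal stood on assembled transcripts rather than on the 6 reference transcripts, which were listed at 0 in 5 libraries and at 110 FPKM in control replicate 3. The assembled transcript of 3820 bases was listed in 5 of the libraries and spanned the positions of the reference gene. On reference transcripts alone the log2 difference of Sirpa was -3.37, from that 1 library.

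Cd47, which encodes the ligand of SIRP alpha, was at 39.0 ± 6.83 FPKM in the controls and 37.7 ± 8.93 FPKM in the stimulated libraries (limma adjusted p = 0.957). The related Sirpb1 genes encode activating receptors that pair with Tyrobp. Sirpb1a was at 11.0 ± 2.04 and 9.41 ± 2.20 FPKM (adjusted p = 0.815), and Sirpb1b at 18.98 ± 4.53 and 22.9 ± 1.43 FPKM (adjusted p = 0.722).

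Lilr4b encodes gp49A, which has no ITIM, and lies 4568 bases from Lilrb4a, which encodes its inhibitory relative gp49B, at chr10:51480612-51486329 and chr10:51490898-51496611. Lilr4b was listed at 0, 437 and 0 FPKM in the controls and at 702, 624 and 0 FPKM in the stimulated libraries. The zeros were not an absence of reads at the locus, since each library had assembled transcripts there and in all 6 libraries at least 1 of them ran from one gene into the other. Assembled transcripts held 54.7% to 77.1% of the fragments of the locus in the controls and 26.9% to 39.99% in the stimulated libraries, so the share of each gene could not be told. Lilrb4a alone was at 933, 1111 and 794 FPKM in the controls and at 1376, 1268 and 1801 FPKM in the stimulated libraries, without overlap (limma adjusted p = 0.248). Taken as one locus with the assembled transcripts, the genes gave 1656, 2310 and 2028 FPKM in the controls and 2395, 2380 and 2264 FPKM in the stimulated libraries, which overlapped. The same locus in scaled fragments was at 4184, 4380 and 4446 in the controls and at 3646, 4041 and 3605 in the stimulated libraries, lower in all 3. The direction for this locus therefore depended on the unit, and no direction is given for Lilr4b.

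**Figure D3:**
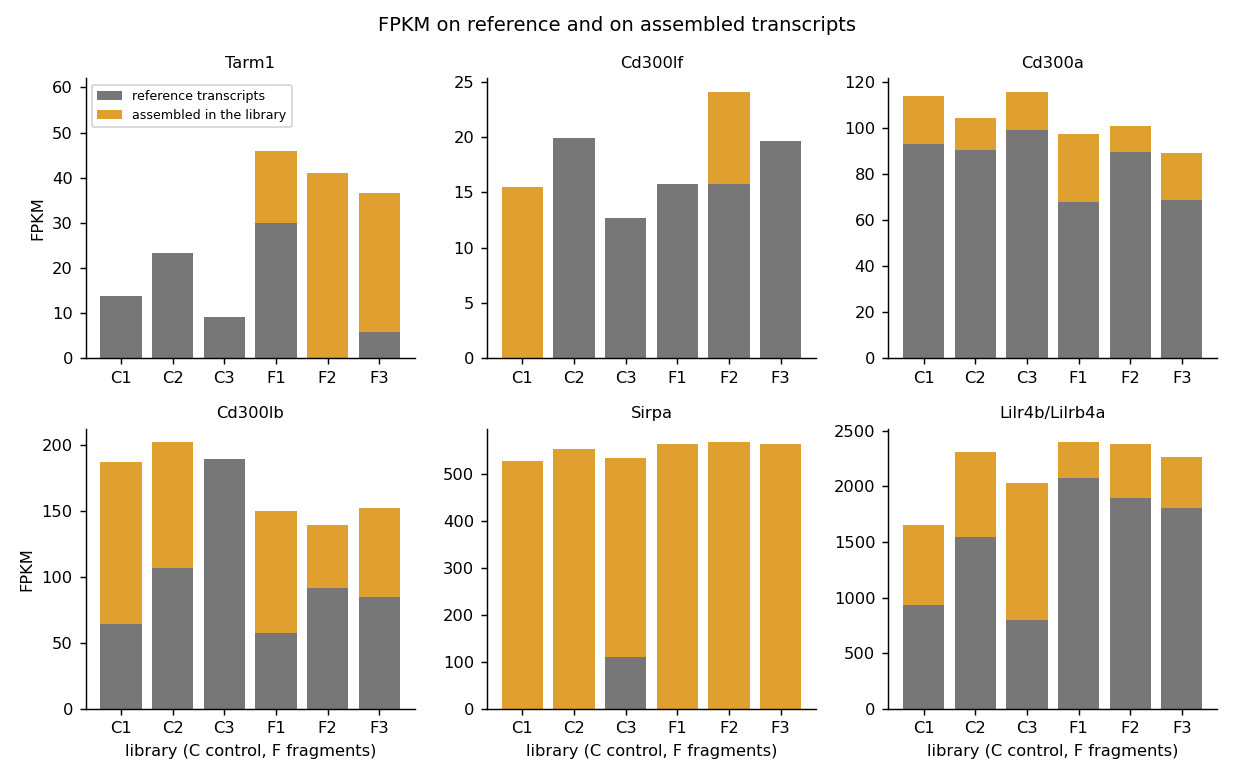
FPKM of 5 members and of the joined Lilr4b/Lilrb4a locus in each library (C, control; F, cartilage fragments), split into reference transcripts (grey) and transcripts assembled in that library (orange), with axes from 0. Assembled transcripts hold nearly all of Sirpa, are seen for Tarm1 in the stimulated libraries alone, and vary from library to library for Cd300lf and Cd300lb.

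**Figure D4:**
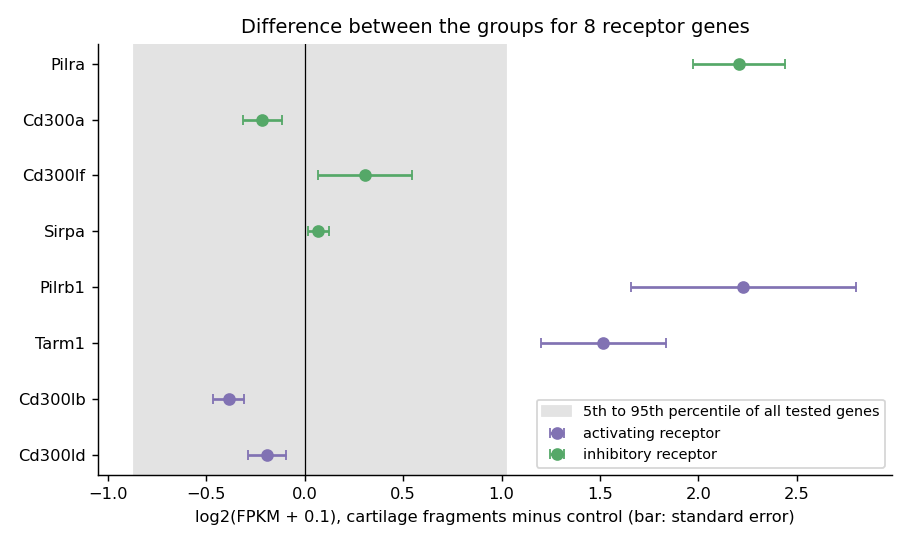
Log2 difference between the groups (cartilage fragments minus control, on log2(FPKM + 0.1)) with its standard error for the 8 members other than Lilr4b, coloured by the kind of receptor, over the range from the 5th to the 95th percentile of all tested genes (-0.87 to 1.02, grey). Pilra, Pilrb1 and Tarm1 lie above that range and the other 5 inside it. As the genes were chosen with these values in view, nothing is read from their place against the range.

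FPKM are scaled per length, so the levels of the genes can be set in order. In the controls the order by mean was Sirpa, Cd300lb, Cd300ld, Lilr4b, Cd300a, Cd300lf, Tarm1, Pilra and Pilrb1. The libraries of Sirpa, Cd300lb and Cd300ld did not overlap between neighbours, whereas Cd300lf overlapped Tarm1 and Pilra overlapped Pilrb1. Lilr4b overlapped both of its neighbours. In the stimulated libraries the order was Sirpa, Lilr4b, Cd300lb, Cd300ld, Cd300a, Tarm1, Pilra, Cd300lf and Pilrb1. Tarm1 and Pilra then stood above Cd300lf by mean, with Pilra overlapping it and Tarm1 clear of Pilra. Cd300lb overlapped Cd300ld there. Lilr4b aside, Pilra, Pilrb1 and Tarm1, which differed most between the groups, were among the 4 lowest of the controls.

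The share of a gene held by each reference transcript is a measure that the choice of genes did not use. It could be followed for Cd300lf and Sirpa, which have several reference transcripts and at least 10 estimated fragments in every library. NM_145634 was the only Cd300lf transcript searched for motifs. It held 0%, 0% and 100% of the Cd300lf FPKM in the controls and 52.6%, 65.5% and 100% in the stimulated libraries. With 3 libraries against 3, an exact two-sided permutation test cannot give a p under 0.1, and here it gave p = 0.4. The other transcript, NM_001169153, held 100% in control replicate 2 and 47.4% in stimulated replicate 1 and was listed at 0 elsewhere (exact permutation p = 1). For Sirpa the only reference transcript above 0 held 20.6% in control replicate 3 (exact permutation p = 1). The shares jumped between 0% and 100% among replicates, at 15.6 to 26.7 fragments of Cd300lf per library.

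The rest of the pathway was followed through lists of other inhibitory receptors, other activating receptors, effectors of inhibitory and of activating motifs, and ligands. Of the 81 tested genes of these lists 0 passed an adjusted p under 0.05 (limma), and 20 had an unadjusted p under 0.05, as 955 of the 10393 tested genes did. The groups did not overlap for 20 genes in the higher and 5 in the lower direction, beside 9.04% and 6.89% of all tested genes. In scaled fragments in place of FPKM, 11 of the 81 passed, beside 1.52% of all tested genes as higher and 0.741% as lower. Tarm1 and Cd300lb then passed as well as Pilra. For Tarm1 this unit rests on transcripts of unlike length between the groups.

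Among 14 tested inhibitory receptors the log2 differences had a median of 0.12, beside 0.0037 for all tested genes. Of them 5 were higher without overlap, beside 9.04% of all tested genes, and Lilrb4a, whose locus turned with the unit, is among the 5. Siglece, which encodes a sialic acid receptor with ITIMs, was at 3.95, 0.814 and 3.30 FPKM in the controls and at 8.17, 11.9 and 10.6 FPKM in the stimulated libraries. It did not pass the test (log2 difference 2.13, standard error 0.55, limma adjusted p = 0.221). Lair1, which encodes a collagen receptor with ITIMs, was at 18.2, 21.4 and 20.2 FPKM in the controls and at 28.0, 39.1 and 31.8 FPKM in the stimulated libraries. It did not pass either (0.71, standard error 0.18, adjusted p = 0.200), although both genes passed in scaled fragments. Pirb, the inhibitory partner of the Pira receptors, was at 288 ± 70.3 and 449 ± 46.2 FPKM without overlap (adjusted p = 0.267).

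Among 13 tested activating receptors the median was 0.55, and 0.19 among the 8 that were above 0 in every library. Genes of the Pira group share most of their sequence, and Pira4 and Pira11 were listed at 0 in 3 libraries each, so their single values are uncertain. Igsf6, which encodes a myeloid surface protein, was at 177, 214 and 203 FPKM in the controls and at 271, 288 and 269 FPKM in the stimulated libraries. The groups stood well apart, but the gene did not pass in FPKM (log2 difference 0.48, standard error 0.09, limma adjusted p = 0.1005) and passed in scaled fragments. Cd200r4 was lower in every stimulated library, at 24.5 ± 5.46 and 14.2 ± 4.21 FPKM (adjusted p = 0.423).

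Of the 12 effectors of inhibitory motifs, 5 had a positive and 7 a negative difference, with a median of -0.09. Ptpn6, the phosphatase SHP-1, was at 118, 126 and 111 FPKM in the controls and at 153, 159 and 147 FPKM in the stimulated libraries. These groups did not overlap, with a log2 difference of 0.37 (standard error 0.09, limma adjusted p = 0.186). Dok2, an adaptor, was at 23.5 ± 3.47 and 30.6 ± 4.33 FPKM (adjusted p = 0.582). Ptpn11 and Inpp5d overlapped between the groups. Ptpn11 was at 22.6 ± 3.14 and 19.7 ± 2.98 FPKM (adjusted p = 0.798), and Inpp5d at 87.5 ± 6.06 and 81.6 ± 4.18 FPKM (adjusted p = 0.808).

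Of the 26 tested effectors of activating motifs, 20 had a positive difference and 8 were higher without overlap, with a median of 0.14, where 5249 of the 10393 tested genes had a positive difference and 9.04% were higher without overlap. Tyrobp was at 3881 ± 283 FPKM in the controls and 3987 ± 152 FPKM in the stimulated libraries (limma adjusted p = 0.855), and Fcer1g at 1024 ± 42.2 and 1148 ± 97.3 FPKM (adjusted p = 0.535). The RNA of both adaptors was thus above that of each of the 9 receptors by mean, and both overlapped between the groups. Fgr, a kinase of the Src family, was at 31.2, 31.3 and 33.4 FPKM in the controls and at 54.9, 50.9 and 43.8 FPKM in the stimulated libraries (log2 difference 0.63, standard error 0.14, adjusted p = 0.140). Hcst, which encodes the adaptor DAP10, was at 29.9 ± 13.4 and 71.8 ± 15.3 FPKM (1.34, standard error 0.33, adjusted p = 0.204). Fgr, Fyb and Cbl passed in scaled fragments, and Hcst did not.

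Of the 16 tested ligands 11 had a negative difference, with a median of -0.09. Col1a1, a collagen chain and so a ligand of LAIR-1, was at 87.4, 75.2 and 74.4 FPKM in the controls and at 50.7, 43.6 and 49.2 FPKM in the stimulated libraries. It had the smallest adjusted p of the 5 lists (log2 difference -0.72, standard error 0.12, limma adjusted p = 0.0849). Col1a1 and Col1a2 are also among the fibroblast markers, whose sum was 157 to 170 FPKM in the controls and 105 to 119 FPKM in the stimulated libraries. B2m, the light chain of MHC class I molecules, which PIR-B binds, was at 2467 ± 76.2 and 2763 ± 50.4 FPKM (0.16, standard error 0.04, adjusted p = 0.155), and its sign turned with quantile normalization. Col1a1 and Col1a2 passed as lower and B2m and H2-K1 as higher in scaled fragments.

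**Figure D5:**
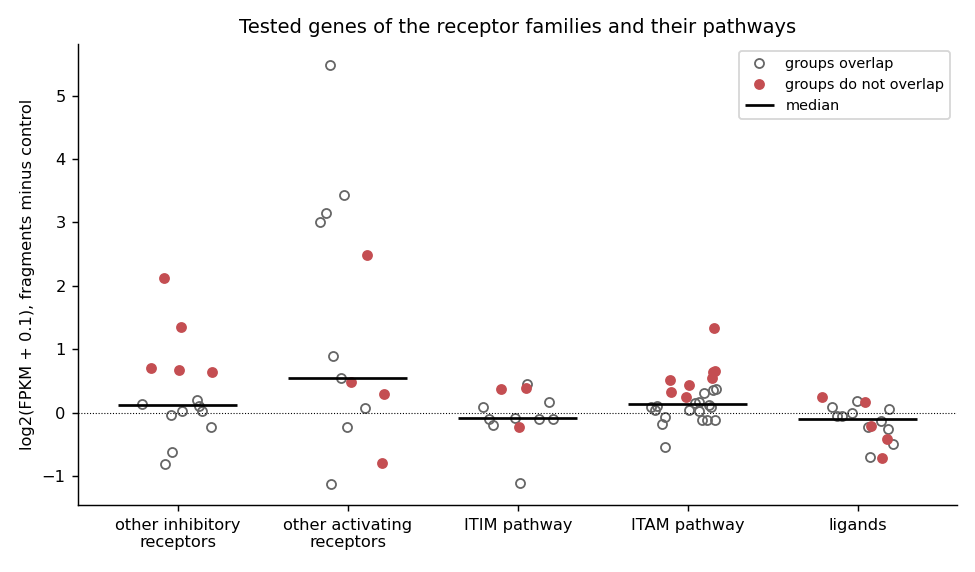
Log2 difference between the groups (cartilage fragments minus control, on log2(FPKM + 0.1)) for each tested gene of the 5 lists, with filled points where the groups do not overlap and the median of each list as a line. The medians run from -0.09 to 0.55, and the widest points of the activating receptors are genes listed at 0 in some libraries.

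The genes whose levels ran most like those of a member over the 6 libraries were taken by Pearson r on log2(FPKM + 0.1), as a description in which all points share the same libraries. They were Cyfip1, Epm2a and Etaa1os for Pilra (r from 0.993 to 0.996), Myd88, Mpeg1 and Atp5g3 for Pilrb1 (0.990 to 0.994), and Il1rl2 and Glrx for Tarm1 (0.993 to 0.998). For the lower genes they were Ccdc174, Gga3 and Zfp710 for Cd300a (0.981 to 0.986), Slc5a3, Ncoa3 and Per2 for Cd300lb (0.985 to 0.990), and Mia3, Lsm6 and Ip6k1 for Cd300ld (0.991 to 0.994). Pacs1, Cdk5 and Mtif2 ran most like Cd300lf (0.985 to 0.993), and Atox1, Gskip and Tnfaip2 most like Sirpa (0.976 to 0.981). With 6 libraries such values are common, as 65 to 223 tested genes had an r over 0.9 with each of these 8 members. The zeros of Lilr4b were shared by Cnbd2, Rab2b and Nbeal2 (0.997 to 0.999).

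Markers of the cultures were read beside these values. All 8 macrophage markers were tested and Adgre1, which encodes F4/80, rose from 365 ± 13.4 to 549 ± 22.04 FPKM (limma adjusted p = 0.00965, lost without stimulated replicate 1 or 2), while the list summed to 29493 to 39204 FPKM in the controls and 30009 to 40276 FPKM in the stimulated libraries. Of 14 chondrocyte markers in the files 8 were at 0 in all libraries, with sums of 2.40 to 5.21 and 1.44 to 3.35 FPKM. Neutrophil markers summed to 829 to 953 and 758 to 1130 FPKM, and dendritic cell markers to 72.2 to 90.2 and 67.2 to 78.2 FPKM. T cell, B cell and mast cell markers stayed at sums of at most 6.54 FPKM and erythroid markers were at 0. Fibroblast markers, given above, were lower with the fragments, and their part in the differences of the receptors was not tested. The deposited values rest on an estimated 742835 to 776371 fragments per control library and 699237 to 754139 per stimulated library. The paper states a far larger number of mapped reads per sample, and the reason for the difference was not tested.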

How the data were processed

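RNA-seq libraries of 3 control and 3 stimulated BMM cultures were compared. Paired-end reads of 100 bp from a stranded mRNA kit were aligned by the authors to mm10 with TopHat and Bowtie, and Cufflinks assembled transcripts per library. The deposited tables give FPKM per transcript with its bounds, and the deposited coverage is a signal of mean read depth. The methods name TMM, and whether it was applied to these FPKM could not be told. Tool versions are not given in the sources used here. No tested gene above 0 in either library of a pair had the same value in both.

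FPKM were summed per gene symbol over the reference transcripts and over assembled transcripts whose Cufflinks locus held that symbol alone. Fragments were estimated as coverage times transcript length less 210 bases, divided by the read length of 100, and 94.6% to 95.7% of values of up to 8 fragments at genes with a single transcript then lay within 0.1 of a whole number. Depth limits the precision of low genes. Genes that averaged 1 FPKM or more were compared as log2(FPKM + 0.1) with limma 3.58.1 in R 4.3.3 (trended, robust eBayes), two-sided. Benjamini-Hochberg adjustment was over all 10393 genes. The fit was also run on simulated counts, with the same dispersion for every gene and no change between reference and assembled transcripts. Nothing is read from that run for these libraries. The size of the difference depends on the pseudocount for low genes and for genes at 0 in some libraries. With 0.01, 0.1 and 1 added, Pilrb1 had 2.29, 2.23 and 1.82, and Lilr4b had 5.54, 4.43 and 3.32. Tables, exact tests and figures were made with scipy 1.17.1, numpy 2.4.6, pandas 2.3.3, Biopython 1.88 and matplotlib 3.10.9 in Python 3.11.15.

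The members, the lists and the tests were chosen with earlier results of these data known. Named genes were the 9 members, fixed partners, genes of each list past the threshold or, where none passed, the 2 with the smallest p, and for each member of at least 5 FPKM the 3 genes of most like pattern, some of which are not reported here. Cd300lh, Cd300e, Pira4, Pira11, Fyb, Cbl, Col1a2 and H2-K1 were named with their values in view. The alternatives took another pseudocount, filter, scaling, unit, transcripts, status, moderation or a replicate block, or left out 1 library.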

Additional observations from a re-analysis of the deposited data

How the results depend on the processing

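Pilra, Cd300lb, Cd300ld and Cd300lf kept their sign in all 18 alternatives, and Pilrb1 and Lilr4b in all 17 that held them. The groups of Cd300lf and Lilr4b overlapped, so a kept sign does not mark a difference. Tarm1 and Sirpa turned with reference transcripts only, and Cd300a with status OK only. The number of genes past the threshold, 32 higher and 6 lower, moved most with scaled fragments in place of FPKM, to 158 and 77. It was 15 higher with reference transcripts only and 13 higher without trend or robust moderation. With 1 library left out it ran from 9 to 27 higher and from 0 to 6 lower, with 9 and 0 without stimulated replicate 1, 15 higher without stimulated replicate 2, 19 and 3 without control replicate 1, and 3 lower without control replicate 2 or 3. With the replicate number as a block it was 17 higher and 1 lower. The deviations of libraries of the same number had r from -0.018 to 0.0099 over tested genes. At this depth r could stay low with paired cultures too, so a pairing is not excluded, and the methods state none. Members past the threshold were 3 with scaled fragments, and 0 to 2 with 1 library left out. Family and pathway genes past the threshold were 11 with scaled fragments and 0 otherwise. Members without overlap were 4 of 9 with reference transcripts only, where Tarm1, Cd300lb and Sirpa overlapped as well. The share of all tested genes without overlap in this setting was not taken, so nothing is read from the count.
Signs turned for Igsf6 with status OK only (-0.65), Dok2 with reference transcripts only (-2.44), B2m with quantile normalization (-0.095), Cd47 with reference transcripts only (0.078), and with 1 library left out for Tyrobp (-0.013 to 0.092) and Cd47 (-0.24 to 0.075). Cd300a had 0.71 with status OK only, a setting that drops its reference transcript in control replicate 3. Other causes were not tested. Adgre1 lost its call with reference transcripts only, without trend or robust moderation, with the block and without stimulated replicate 1 or 2. The share of Cd300lf on NM_001169153 differed by -17.5 percentage points and turned to 15.8 without control replicate 2. Summing the symbols of a joined locus was added after the values were seen and gave 33 higher and 8 lower genes.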
